A study of Homo sapiens with 4 samples.

Results

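The genes of the proteasome, the protease that degrades ubiquitin-tagged proteins, were compared between GFP-positive and GFP-negative cells sorted after differentiation of H1, a widely used line of human embryonic stem cells. Members were taken by symbol: every gene row whose name is PSM, a letter from A to G and a number. This gave 48 genes of the 28285 gene rows that all 4 libraries share. They are 8 genes of the 20S alpha ring, 7 constitutive genes of the 20S beta ring, the 3 immunoproteasome genes PSMB8, PSMB9 and PSMB10, the thymus-type gene PSMB11, 6 ATPases and 11 non-ATPases of the 19S particle, 3 chaperones of 19S assembly, 4 chaperones of 20S assembly, and 5 genes for activators and an inhibitor. The symbol rule therefore takes assembly factors and regulators as well as subunits of the particle itself.

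All cells carried eGFP knocked into GATA2, which encodes a GATA-family transcription factor active in blood stem cells, and all were sorted as CD34+ CD31+ CD43-. The GFP-positive fraction, 2 libraries, is labelled eGFP+ hemogenic endothelium, the endothelium that gives rise to blood cells. The GFP-negative fraction, 2 libraries, is labelled eGFP- endothelial cells, although the sample source is named as hemogenic endothelium for all 4. Cre appears in all 4 titles, with no word in the labels on what it was used for. Nothing in the labels says that the replicates came from separate differentiations, so p-values measure the spread between these libraries, which may be technical. Levels are TPM, a gene's share of the transcripts corrected for length, so levels of different genes can be set side by side. A log2 fold change is the GFP-positive minus the GFP-negative mean of log2(TPM + 1), with its standard error (SE) from limma, a linear model with a spread shared across genes, fitted on all 15425 genes that passed a filter of 1 TPM in at least 2 libraries.

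The 20S core is a barrel of outer alpha rings, which gate the entrance, and inner beta rings, which hold the cutting sites. PSMB5, PSMB6 and PSMB7 encode the catalytic beta subunits of most cells, and after interferon signalling PSMB8, PSMB9 and PSMB10 can take their places to form the immunoproteasome, which supplies peptides for MHC class I. The 19S particle caps the barrel, recognises ubiquitin, removes it, and unfolds the substrate with a ring of ATPases, while the PSME activators open the barrel by another route. Immunoproteasome subunits are abundant in blood and lymphoid cells, and many proteasome genes are under control of the transcription factor NRF1.

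Promoter sequences of members were read from a RefSeq table on GRCh38.p14 that holds 42 of the 48 genes; PSMA7, PSMB1, PSMB6, PSMB7, PSMD4 and PSMG3 have no entry in it. In the 250 bases before each start, on both strands, the letters GAAANNGAA, a core bound by interferon regulatory factors (IRF), were found in 5 members (11.9%) and in 8.41% of the 27305 genes of the table. The 30 bases around each of the 5 matches are shown because they set the interferon-inducible PSMB10 and the activator gene PSME2 beside the 3 other members with a match. Capitals mark the match, and each run reads 5′ to 3′ on the strand of the gene.
PSMB10 (chr16:67936852-67936881, minus strand): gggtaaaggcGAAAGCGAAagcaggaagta
PSME2 (chr14:24146619-24146648, minus strand): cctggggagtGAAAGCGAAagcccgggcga
PSMG4 (chr6:3258904-3258933, plus strand): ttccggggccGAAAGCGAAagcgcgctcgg
PSMB4 (chr1:151399495-151399524, plus strand): tcgtctacagGAAAAAGAAagaaatgacac
PSMA4 (chr15:78540155-78540184, plus strand): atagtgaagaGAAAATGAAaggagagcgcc
The match began at position -21 from the start in PSMB10, -28 in PSME2, -33 in PSMG4, -68 in PSMB4 and, from 1 of its annotated starts, -240 in PSMA4. The 9 letters of PSMB10, GAAAGCGAA, recurred in PSME2 and PSMG4, and 77 genes of the table (0.282%) hold them; these letters were picked after they were seen. PSMB9 has no IRF match in this window, and such a match is a description of letters, not of binding.

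The other letters searched were TTCNNNGAA, a core for STAT factors, in 7 members (16.7%) against 8.09% of genes, TGACNNNGC, the core of the antioxidant response element through which NRF1 acts, in 13 members (31.0%) against 13.2%, CCAAT in 19 members (45.2%) against 37.0%, and CCGGAAG, an ETS core, in 11 members (26.2%) against 10.2%. An IRF and a STAT match can share bases. These shares have no test, and the table holds more than 1 start for some genes. To show how an inducible and a constitutive catalytic gene and an activator gene differ at the start, stretches of their promoters outside annotated exons follow. The antioxidant core (PSMB9, on the opposite strand, and PSME1) or CCAAT (PSMB5) is in capitals. The PSMB5 stretch belongs to 1 of its annotated starts, and the window of another start holds STAT matches at -158 and -15.
PSMB9 (chr6:32853979-32854160, plus strand): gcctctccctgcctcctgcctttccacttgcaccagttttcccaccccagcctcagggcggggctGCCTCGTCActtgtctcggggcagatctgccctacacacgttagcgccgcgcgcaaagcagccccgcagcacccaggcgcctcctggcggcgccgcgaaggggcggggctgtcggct
PSMB5 (chr14:23035231-23035470, minus strand): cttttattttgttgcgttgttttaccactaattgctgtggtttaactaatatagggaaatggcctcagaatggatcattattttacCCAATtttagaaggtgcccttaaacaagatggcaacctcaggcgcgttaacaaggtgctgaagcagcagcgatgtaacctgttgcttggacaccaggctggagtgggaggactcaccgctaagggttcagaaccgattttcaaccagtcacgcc
PSME1 (chr14:24135944-24136157, plus strand): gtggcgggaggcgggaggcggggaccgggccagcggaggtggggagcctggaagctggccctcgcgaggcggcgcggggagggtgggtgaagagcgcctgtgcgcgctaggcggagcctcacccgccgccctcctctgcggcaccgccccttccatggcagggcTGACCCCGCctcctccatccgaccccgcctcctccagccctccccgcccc
The PSMB9 stretch of 182 bases is the gap between the exons of TAP1, a peptide transporter gene that reads the other way, and those of PSMB9. In these cells PSMB9 did not exceed 0.50 TPM, while PSMB5 ran from 260.2 to 407 TPM and PSME1 from 35.6 to 61.9 TPM.

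Of the 3 immunoproteasome genes, PSMB10 alone was listed at more than a trace. PSMB8 was listed at 0 in all 4 libraries. For PSMB9 the GFP-positive libraries are both listed at 0, while GFP-negative replicates 1 and 2 had 0.48 and 0.50 TPM, below the filter, so neither gene was tested. PSMB11, the thymic beta subunit, and PSMA8, the testis alpha subunit, were also listed at 0 in all 4. PSMB10 stood at 24.7 and 29.97 TPM in GFP-positive replicates 1 and 2 and at 20.9 and 12.7 TPM in GFP-negative replicates 1 and 2. Both GFP-positive values lay above both GFP-negative values, with means of 27.4 ± 3.71 and 16.8 ± 5.81 TPM (SD, n = 2 each), a ratio of 1.63. On the log2 scale this was 0.70 ± 0.34 (SE), with a limma adjusted p of 0.418 (Benjamini-Hochberg over all tested genes) and a 95% interval from -0.11 to 1.52. The interval holds 0, so at 2 libraries per fraction the difference could not be set apart from 0. The estimate also leaned on single libraries, being 0.36 when GFP-negative replicate 2 was left out and 1.04 when its partner replicate 1 was.

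The constitutive counterparts stood well above PSMB10 in every library. PSMB5, the chymotrypsin-like site, had 407 and 260.2 TPM in GFP-positive replicates 1 and 2 and 280.5 and 296 TPM in GFP-negative replicates 1 and 2. The groups overlapped, since GFP-positive replicate 1 was highest and replicate 2 lowest of the 4 (log2 fold change 0.18 ± 0.22, limma adjusted p = 0.806, interval -0.37 to 0.72). PSMB6, the caspase-like site, had 258 and 200.2 against 252 and 257 TPM, overlapping as well (-0.16 ± 0.16, limma adjusted p = 0.735). PSMB7, the trypsin-like site, had 254 and 218 against 260.4 and 269 TPM, with both GFP-positive values lower (-0.17 ± 0.14, limma adjusted p = 0.677, interval -0.51 to 0.18).

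Set against the gene whose place it takes, PSMB10 amounted to 9.73% and 13.7% of PSMB7 in GFP-positive replicates 1 and 2 and to 8.04% and 4.73% in GFP-negative replicates 1 and 2. The log2 ratio was 0.91 higher in the GFP-positive libraries, without overlap, and the exact two-sided permutation p was 0.333, the smallest that 2 libraries against 2 can give; without GFP-negative replicate 2 the difference was 0.52. PSMB9 was 0.190% and 0.195% of PSMB6 in the GFP-negative libraries. The 3 inducible genes together amounted to 2.69%, 4.42%, 2.70% and 1.61% of the 3 constitutive ones in GFP-positive replicates 1 and 2 and GFP-negative replicates 1 and 2. These groups overlapped, with a log2 difference of 0.73 and an exact permutation p of 0.667, and leaving out replicate 2 of the GFP-negative or of the GFP-positive fraction brought the difference to 0.35 or 0.37. By the listed values, the constitutive catalytic genes made up nearly all catalytic-subunit transcripts in both fractions. The values of PSMB8 and PSMB9 carry the uncertainty given below for their region.

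**Figure D1:**
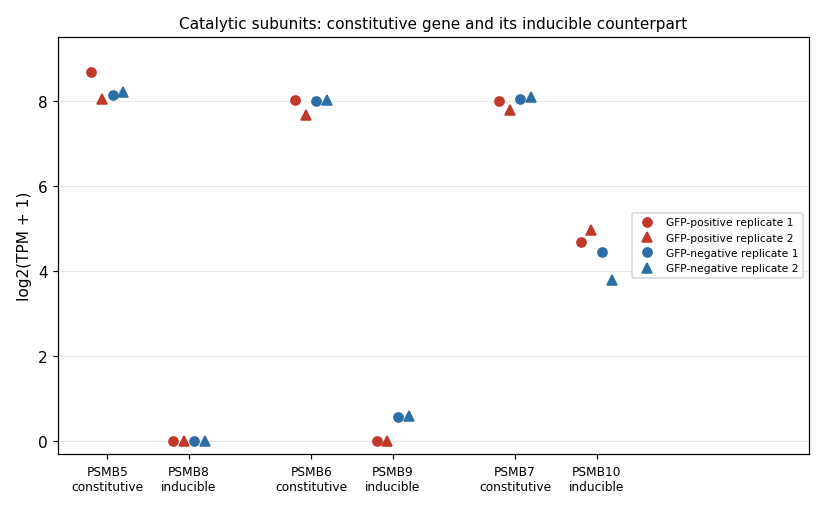
Levels of the 3 constitutive catalytic genes and their inducible counterparts, as log2(TPM + 1) on the vertical axis, 1 point per library (red GFP-positive, blue GFP-negative; circles replicate 1, triangles replicate 2). PSMB8 lies at 0 in all 4 libraries, PSMB9 between 0 and 0.50 TPM, and PSMB10 between 12.7 and 29.97 TPM, below PSMB5, PSMB6 and PSMB7.

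PSMB8, PSMB9 and TAP1 lie next to each other in the MHC region of chromosome 6. TAP1, named after its values were seen, had 0.31 and 0.53 TPM in GFP-positive and 0.76 and 0.34 TPM in GFP-negative replicates 1 and 2. PSMB8, PSMB9 and TAP1 were thus listed at or near 0 in all 4 libraries. The transporter gene TAP2, also named after its values were seen, had 3.48 and 1.89 TPM in GFP-positive replicates 1 and 2. In GFP-negative replicates 1 and 2 it had 0.18 and 0.90 TPM (log2 fold change 1.26 ± 0.57, limma adjusted p = 0.400). TAPBP, a gene of the same region that encodes the peptide-loading factor tapasin, was not at 0 and ran from 14.7 to 27.6 TPM. Whether the authors' reference held the alternate haplotype copies of this region, among which reads can be split, is not given in the sources used here, and values in the region are uncertain to that extent. In GENCODE v29, PSMB8 also shares 134 exon bases with the antisense gene PSMB8-AS1. On the same strand, PSMB9 shares 139 with PSMB8-AS1 and PSMB10 shares 374 with AC040162.1. The library kit does not mark strand, so reads of such partners cannot be told apart; 12 members share exon bases with a gene of the opposite strand and 7 with 1 of the same strand.

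Over all tested members, 0 of 44 passed an adjusted p of 0.05 in limma, against 69 of 15425 genes (0.447%). At an unadjusted p under 0.05 there were 5 members (11.4%), namely PSME2, PSMG1, PSMF1, PSMB3 and PSMD6, against 14.1% of all genes. A difference of at least 0.5 in either direction on the log2 scale was held by 5 members (11.4%), PSMF1, PSMB10, PSMD5, PSME2 and PSMG1, against 33.8% of all genes and 21.2% of the 7226 genes at least as abundant as the lowest tested member. The median SE was 0.174 over the members, whose mean levels ran from 22.1 to 350.0 TPM, against 0.225 over those 7226 genes and 0.349 over all genes tested. The 95% interval held 0 for 39 of 44 members, ended below 1 for 38, and began above -1 for all 44.

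The direction of the estimates was uneven. A log2 fold change above 0 was found in 36 of 44 members (81.8%), against 51.8% of all genes. Both GFP-positive values lay above both GFP-negative values in 17 members (38.6%; 22.8% of all genes), both lay below in 2, PSMB7 and PSMD10 (4.55%; 21.5% of all genes), and the groups overlapped in 25. The median over the 44 members was 0.17, the median over all genes tested 0.02, and the median over those 7226 genes 0.04. Summed over members, the level was 7519 and 6647 TPM in GFP-positive replicates 1 and 2 and 6344 and 6377 TPM in GFP-negative replicates 1 and 2, or 0.754%, 0.667%, 0.636% and 0.640% of all TPM. Replicate 1 of the GFP-positive fraction stood highest, and the log2 difference of the sums was 0.15 (exact permutation p = 0.333, the smallest possible), or 0.064 without that library. The direction rested in part on that library: 33 of 44 members were higher there than in GFP-positive replicate 2, and without it the median was 0.05, with 27 of 44 members above 0. Without GFP-positive replicate 2 the median was 0.29, with 40 of 44 above 0. In 19 of 44 members the estimate changed sign when at least 1 of the 4 libraries was left out.

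**Figure D2:**
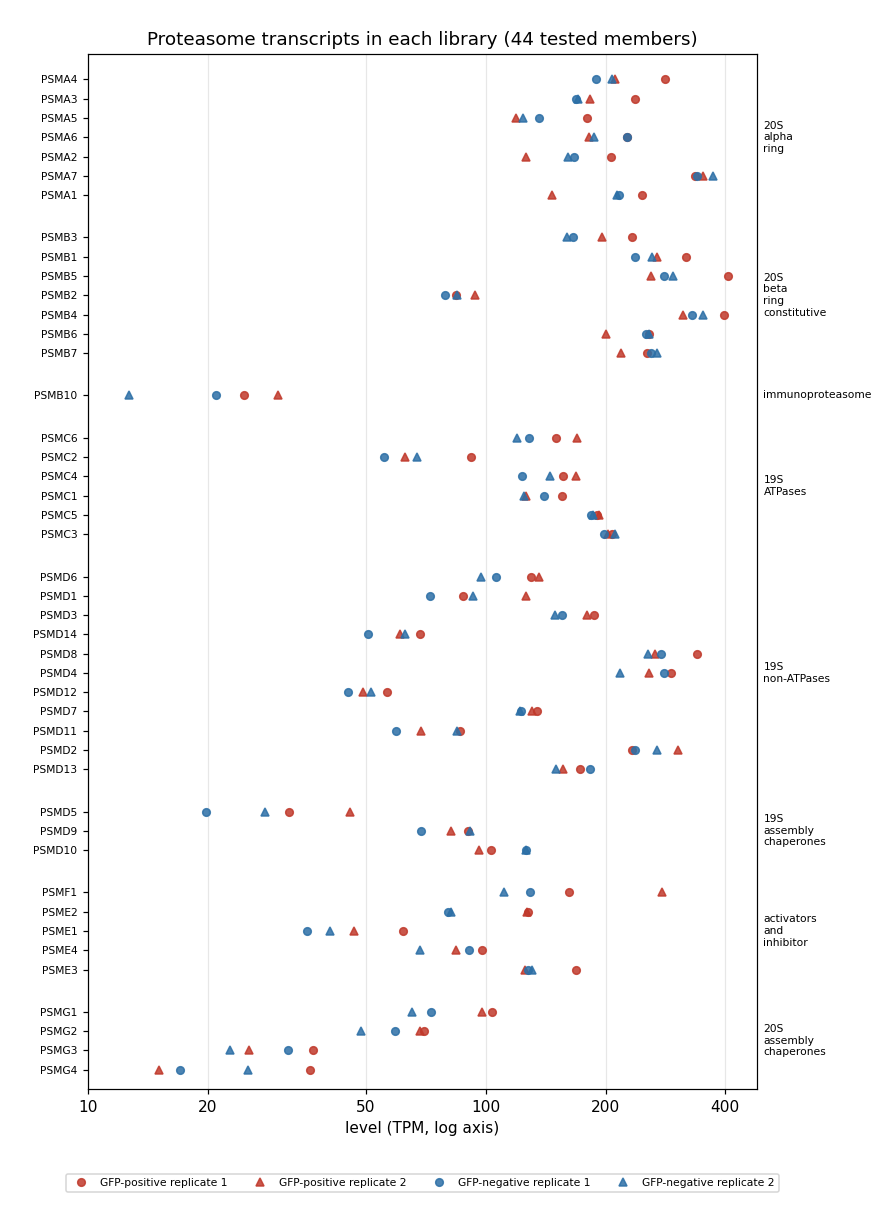
Level of each of the 44 tested members in each library, in TPM on a log axis, with members grouped by role and ordered by log2 fold change (red GFP-positive, blue GFP-negative; circles replicate 1, triangles replicate 2). The colours are mixed in most rows of the 20S rings, while PSME2, PSMF1 and PSMG1 have both red points to the right of both blue ones.

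The alpha ring, whose 7 detected genes gate the barrel, did not differ in level between the fractions beyond its spread. Its summed level was 1713 and 1319 TPM in GFP-positive replicates 1 and 2 and 1442 and 1437 TPM in GFP-negative replicates 1 and 2, so the GFP-negative values fell between the GFP-positive ones (log2 difference 0.06, exact permutation p = 1). The median estimate over its genes was -0.02, with 3 above and 4 below 0, and 0.33 without GFP-positive replicate 2. PSMA4 had the highest, with 282 and 211 against 189.6 and 208 TPM, a narrow separation (0.29 ± 0.18, limma adjusted p = 0.536). PSMA1 had the lowest, with 247 and 147 against 216 and 214 TPM (-0.17 ± 0.25, limma adjusted p = 0.838), and its groups overlapped because the GFP-positive libraries lay on either side. The order of levels was steadier than the differences: PSMA7, from 336 to 373 TPM, was the highest gene of the ring in every library and PSMA5, from 119 to 179.7 TPM, the lowest, a range of 1.87-fold to 3.01-fold within a library.

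The constitutive beta ring resembled it. Summed levels were 1950.2 and 1552 TPM in GFP-positive replicates 1 and 2 and 1605 and 1679.7 TPM in GFP-negative replicates 1 and 2, again overlapping (log2 difference 0.08, exact permutation p = 1), and 5 genes lay above and 2 below 0 with a median of 0.12, which was -0.13 without GFP-positive replicate 1. PSMB3, a structural subunit, had 232 and 196 against 165 and 159.9 TPM without overlap (0.39 ± 0.15, limma adjusted p = 0.331). PSMB2 was the lowest gene in every library, from 78.8 to 93.9 TPM, while PSMB4 was highest in 3 libraries and PSMB5 in GFP-positive replicate 1. Highest and lowest gene differed 3.33-fold to 4.84-fold within a library, although each subunit occurs once per ring. Over both rings, 12 of 14 tested genes were higher in GFP-positive replicate 1 than in replicate 2.

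**Figure D3:**
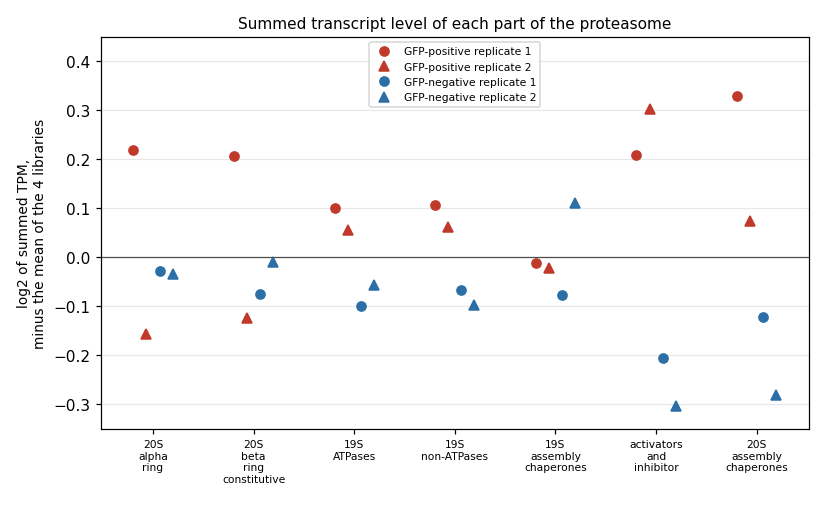
Summed TPM of the members of each role except the immunoproteasome genes and PSMB11, as log2 minus the mean of the 4 libraries, 1 point per library (red GFP-positive, blue GFP-negative; circles replicate 1, triangles replicate 2). In both 20S rings the red points lie on either side of the blue ones, whereas for activators and inhibitor both red points lie above both blue ones, at 618 and 660 against 463 and 433 TPM.

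Estimates for the 19S particle were small and lay mostly above 0. The 6 ATPases, which form the unfolding ring, summed to 952 and 922 TPM in GFP-positive replicates 1 and 2 and to 829 and 854 TPM in GFP-negative replicates 1 and 2. These groups did not overlap (log2 difference 0.16, exact permutation p = 0.333, the smallest possible), and all 6 genes had estimates above 0 with a median of 0.18, which was 0.046 without GFP-positive replicate 1. PSMC6 had 149.9 and 169 against 129 and 119.6 TPM (0.36 ± 0.15, limma adjusted p = 0.374). PSMC3, the highest ATPase gene in every library, was level at 207 and 203 against 198 and 211 TPM (0.01 ± 0.13, limma adjusted p = 0.992), and its estimate turned to -0.03 when libraries were scaled to a common upper quartile. PSMC2 was the lowest in every library, from 55.3 to 92.0 TPM.

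Non-ATPases of the 19S particle, which include ubiquitin receptors, scaffolds and the deubiquitinase PSMD14, summed to 1789.9 and 1735 TPM in GFP-positive replicates 1 and 2 and to 1587 and 1553 TPM in GFP-negative replicates 1 and 2. The sums did not overlap (log2 difference 0.17, exact permutation p = 0.333), and 10 of 11 estimates lay above 0, with a median of 0.15, which was 0.24 without GFP-positive replicate 2. PSMD6 had 130.2 and 136 against 106 and 97.2 TPM without overlap (0.39 ± 0.15, limma adjusted p = 0.340). PSMD13 was at the other end, with 173 and 157 against 183 and 150.2 TPM (-0.01 ± 0.16, limma adjusted p = 0.990). The ubiquitin receptor PSMD4 and the scaffold PSMD2 were among the highest, at 218 to 293 and 234 to 304 TPM, and PSMD14 ran from 50.7 to 68.5 TPM. PSMD12 was the lowest in every library, from 45.2 to 56.5 TPM.

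Chaperones of 19S assembly, which hold ATPase pairs until the base is complete, had estimates in opposite directions. PSMD5 had 32.0 and 45.6 TPM in GFP-positive replicates 1 and 2 and 19.8 and 27.8 TPM in GFP-negative replicates 1 and 2, without overlap (0.68 ± 0.30, limma adjusted p = 0.388). PSMD10, also known as gankyrin, had 103 and 96.0 against 126 and 126 TPM, the GFP-negative libraries being higher (-0.34 ± 0.15, limma adjusted p = 0.394). PSMD9 lay between them at 0.12 (-0.085 without GFP-negative replicate 1), and the sum of the 3 differed by -0.03 on the log2 scale (exact permutation p = 1).

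Activators and the inhibitor had all 5 estimates above 0, with a median of 0.49, which was 0.29 without GFP-positive replicate 1. Their summed level was 618 and 660 TPM in GFP-positive replicates 1 and 2 against 463 and 433 TPM in GFP-negative replicates 1 and 2 (log2 difference 0.51, exact permutation p = 0.333, the smallest possible). PSME1 and PSME2 encode the alpha and beta chains of the interferon-inducible activator PA28. PSME2 had 128 and 127 against 80.4 and 81.8 TPM, with replicates that agreed closely (127 ± 0.990 against 81.1 ± 0.969 TPM, SD, n = 2 each), a ratio of 1.57. It had the smallest p of all members and still missed the threshold (0.64 ± 0.15, limma adjusted p = 0.155). PSME1 had 61.9 and 46.7 against 35.6 and 40.6 TPM, a ratio of 1.43 without overlap (0.49 ± 0.23, limma adjusted p = 0.415).

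PSMF1, the inhibitor known as PI31, stood at 162 and 277 TPM in GFP-positive replicates 1 and 2 and 129 and 111 TPM in GFP-negative replicates 1 and 2, a ratio of 1.83 (0.82 ± 0.27, limma adjusted p = 0.263). With GFP-positive replicate 2 left out the estimate was 0.43, below those of many members, the highest being PSMG4, PSME1 and PSME2 (0.78, 0.69 and 0.65). Both GFP-positive values were higher, but they differed from each other by more than GFP-positive replicate 1 differed from the GFP-negative libraries. PSME3, the nuclear activator PA28 gamma, had 169 and 126 against 128 and 131 TPM with overlap (0.17 ± 0.19, limma adjusted p = 0.764), and PSME4 had an estimate of 0.20.

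Chaperones of 20S assembly, which build the alpha ring, summed to 247 and 207 TPM in GFP-positive replicates 1 and 2 and to 181 and 162 TPM in GFP-negative replicates 1 and 2 (log2 difference 0.40, exact permutation p = 0.333), and all 4 estimates lay above 0 with a median of 0.27, which became 0.14 or 0.51 on leaving out replicate 1 or 2 of the GFP-positive fraction, and 0.46 on leaving out replicate 1 of the GFP-negative fraction. PSMG1 had 104 and 98.1 against 73.0 and 65.4 TPM, a ratio of 1.46 without overlap (0.54 ± 0.17, limma adjusted p = 0.248). PSMG2, its partner in a heterodimer, did not overlap either, at 70.0 and 68.4 against 59.0 and 48.5 TPM with an estimate of 0.37. PSMG4 was low and scattered, with 36.2 and 15.1 against 17.0 and 25.3 TPM (0.17 ± 0.46, limma adjusted p = 0.922), and an estimate of -0.43 without GFP-positive replicate 1. PSMB10, PSME2 and PSMG4, which share the 9 letters shown above, thus had estimates of 0.70, 0.64 and 0.17, and the other members with an IRF match, PSMA4 and PSMB4, 0.29 and 0.05.

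**Figure D4:**
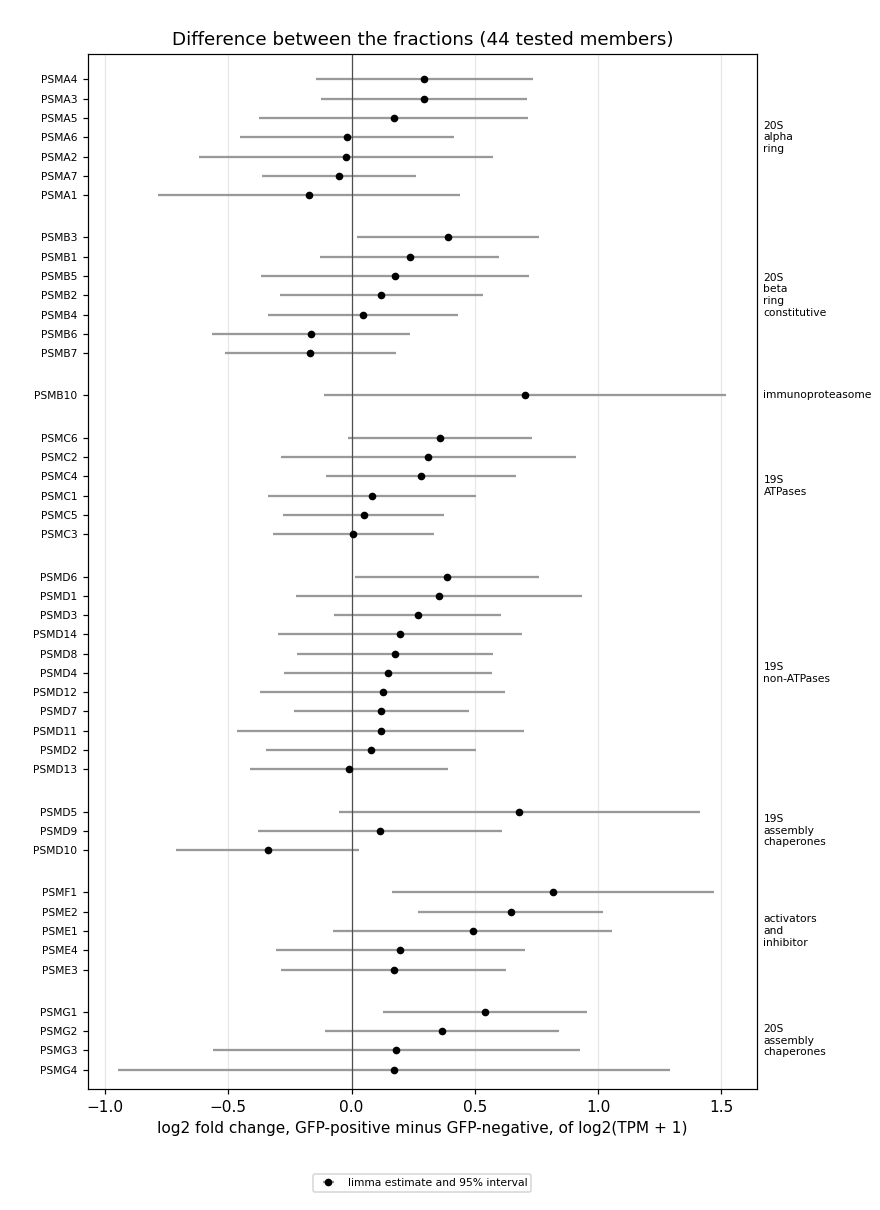
Log2 fold change, GFP-positive minus GFP-negative, of each tested member by role, with the 95% interval from limma on the horizontal axis. Most points lie right of 0, and the intervals of PSMB3, PSMD6, PSMF1, PSME2 and PSMG1 do not reach 0 before adjustment, while none of the 44 members passed after adjustment.

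Genes that act with the proteasome were taken from 5 lists. Of these, 69 genes were tested, and 0 passed the adjusted p of 0.05 in limma. An unadjusted p under 0.05 was held by 9 of the 69, against 14.1% of all genes. Among 16 other proteasome factors, 10 lay above and 6 below 0, with a median of 0.09. UCHL5, a 19S-bound deubiquitinase, had 52.5 and 54.1 against 34.9 and 33.6 TPM (0.62 ± 0.20, limma adjusted p = 0.255). Its docking subunit ADRM1 had the other direction, with 210.2 and 252 against 296 and 275 TPM (-0.31 ± 0.15, limma adjusted p = 0.422), and ZFAND5, a proteasome-binding zinc-finger protein, had 166 and 190.3 against 198 and 247 TPM (-0.31 ± 0.17, limma adjusted p = 0.482). In the NRF1 pathway, 4 of 9 genes lay above 0 and the median was -0.05. NFE2L1, which encodes NRF1 itself, had 135 and 143 against 174 and 193 TPM, lower in both GFP-positive libraries (-0.40 ± 0.15, limma adjusted p = 0.314). UFD1L, a cofactor of the VCP segregase, had 126 and 99.9 against 77.2 and 99.7 TPM (0.35 ± 0.21, limma adjusted p = 0.520). NFE2L2, which encodes the related factor NRF2, had 50.7 and 35.3 against 51.8 and 57.0 TPM (-0.35 ± 0.24, limma adjusted p = 0.593). The 5 ubiquitin and E1 genes had a median of 0.02. The ubiquitin gene UBB had 2063 and 1978 against 1985 and 1892 TPM (0.06 ± 0.11, limma adjusted p = 0.882). Of the activating enzymes, UBA1 had 235 and 221 against 225 and 241 TPM (-0.03 ± 0.13, limma adjusted p = 0.957), and UBA6 had 30.6 and 27.9 against 36.9 and 21.3 TPM (0.06 ± 0.32, limma adjusted p = 0.968).

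MHC class I presentation, the pathway that the immunoproteasome feeds, had 7 of 14 tested genes above 0 and a median of -0.03. ERAP1, which trims peptides in the endoplasmic reticulum, had 39.9 and 35.7 against 18.5 and 21.6 TPM (0.88 ± 0.25, limma adjusted p = 0.203). TAPBP had 24.2 and 27.6 against 14.7 and 15.4 TPM (0.75 ± 0.28, limma adjusted p = 0.313). The presenting molecule HLA-B had 38.1 and 26.6 against 63.7 and 43.0 TPM, lower without overlap (-0.70 ± 0.30, limma adjusted p = 0.366). Reads of HLA genes can be shared between near-identical copies, so their values are uncertain.

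Of the interferon response, 25 of 32 genes were tested, 14 lay above 0 and the median was 0.05. The 3 genes of smallest p did not share a direction: the antiviral synthetase OAS2 had 0.26 and 0.52 against 9.84 and 5.96 TPM (-2.65 ± 0.51, limma adjusted p = 0.104), whereas IFITM2 had 739 and 667 against 468 and 517 TPM (0.51 ± 0.13, limma adjusted p = 0.168) and GBP4 had 24.6 and 6.66 against 2.22 and 2.21 TPM (2.12 ± 0.64, limma adjusted p = 0.233). IRF1, a factor that binds the IRF core and was named after its values were seen, had 15.4 and 13.5 against 4.70 and 7.86 TPM (1.12 ± 0.40, limma adjusted p = 0.298). The other tested IRF genes of the list, IRF7 and IRF9, had estimates of 0.05 and 0.03, with overlapping groups. A link between these factors and the promoter letters was not tested. CXCL10, a chemokine of the interferon response, was listed at 0 in all 4 libraries.

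The fractions differed in markers of cell type or state, including those of endothelium itself, and the part of this in the values above was not tested. In bulk RNA, fewer cells of a type and less RNA per cell cannot be told apart. All 12 endothelial markers had estimates below 0 (median -0.98), MMRN2 passed (134 and 148 against 341 and 339 TPM, limma adjusted p = 0.0391), and their sum was 4211 to 4411 TPM in GFP-positive and 6573 to 7338 TPM in GFP-negative libraries. All 10 tested erythroid genes lay above 0 (median 2.31), HBG2 passed (90.6 and 45.7 against 2.27 and 2.11 TPM, limma adjusted p = 0.0316), and the sum was 271 to 465 against 68.5 to 77.7 TPM. No gene of the other marker lists passed, with medians of 0.11 for 12 leukocyte genes (749 to 775 against 618 to 648 TPM in sum), 0.96 for 6 megakaryocyte genes (162 to 207 against 89.8 to 104.5 TPM), 0.51 for 10 mesenchymal genes (1944 to 1946 against 1002 to 1266 TPM), 0.70 for 6 epithelial genes (1485 to 1736 against 885 to 1075 TPM), -0.23 for 4 pluripotency genes (463 to 570.0 against 389 to 396 TPM) and 0.23 for 14 proliferation genes (1625 to 1881 against 1582 to 1807 TPM). LIN28A made up most of the pluripotency sum (477 and 386 against 304 and 287 TPM), while the 3 other tested genes of that list had estimates below 0. Of the 12 tested leukocyte genes, 3 were higher in the GFP-positive libraries without overlap, as were 22.8% of all genes. These were SPI1 (31.4 and 46.9 against 14.7 and 8.44 TPM), RAC2 (132 and 118 against 64.9 and 79.8 TPM) and LAPTM5 (466 and 418 against 407 and 382 TPM). Another 4 were lower without overlap, as were 21.5% of all genes. They were LCP1 (2.82 and 3.88 against 5.68 and 5.60 TPM), CD53 (1.69 and 2.65 against 5.43 and 4.61 TPM), ITGB2 (25.7 and 30.4 against 33.6 and 37.8 TPM) and TYROBP (3.93 and 2.55 against 5.88 and 4.08 TPM). PTPRC, the common leukocyte antigen, had 0.54 and 1.84 against 2.64 and 0.31 TPM, and CD48, the untested gene of the list, was listed at 0 in all 4 libraries.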

How the data were processed

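RNA was sequenced from 2 GFP-positive and 2 GFP-negative libraries, with group and replicate read from each title. Per the file headers, the authors deposited 1 table per library with a TPM value for each gene. The submitters' processing notes name Bowtie, RSEM, hg19 and mm10, with no versions or roles; neither the annotation nor any parameter is given in the sources used here. TPM keeps no depth, so read totals are unknown and no counting intervals are given. The kit is per the labels' protocols an Illumina TruSeq RNA kit used on total RNA.

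From these values limma 3.58.1 in R 4.3.3 was run on log2(TPM + 1), with eBayes fitting a trend of the variance on the level. Genes entered when 2 or more of the 4 libraries had 1 TPM or more. Tests were two-sided with Benjamini-Hochberg adjustment over all tested genes and a threshold of 0.05. This scale understates the change of low genes. The fit was also run on data simulated from its own fitted variances, which cannot show how well it suits these libraries. Sums and ratios of TPM were compared by exact permutation tests over libraries (scipy 1.17.1), which cannot reach the threshold with 2 against 2. Promoter letters came from RefSeq on GRCh38.p14 and exon overlaps from GENCODE v29, neither being the build of the files.

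Per-library values are given for the catalytic genes and their inducible counterparts, the 6 members of smallest p, and the highest and lowest estimate of each role, and in each of 5 related lists for the 3 genes of smallest p. Of the 8 lists of cell type or state markers, genes past the threshold are named. Other names were chosen after values were seen. The members and lists were chosen with earlier results of these data known. Alternatives were a pseudocount of 0.1, no filter, a mean of at least 5 TPM, no variance trend, upper-quartile scaling, a replicate block and each library left out.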

Additional observations from a re-analysis of the deposited data

How the results depend on the processing

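With 2 libraries per fraction, differences of the size seen here can go undetected, and low genes rest on an unknown number of reads. No tested proteasome member passed in any of the 10 alternative fits. Of the immunoproteasome genes these fits tested PSMB10, and with no filter PSMB9 as well, while PSMB8, listed at 0, was tested in none. Fits in which no gene at all passed could not have passed a member. The count over all genes moved widely: from 69 to 0 when 0.1 replaced 1 as pseudocount (2101 genes then had an unadjusted p under 0.05), 0 with no filter (2230), 0 with no variance trend (2072), 164 with a mean of at least 5 TPM, 596 with the replicate block, and 18 to 65 with a library left out, 18 being without GFP-negative replicate 1. The marker genes MMRN2 and HBG2 therefore did not pass with a pseudocount of 0.1, no filter or no variance trend. The replicate block gave 2 genes of the 5 related lists, OAS2 and IFITM2, in place of 0. Same-numbered libraries deviated together only weakly (correlation 0.0719). This value cannot show whether the numbers pair the libraries, so the replicate block is given only as an alternative.

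The members' median ranged from 0.054 without GFP-positive replicate 1 to 0.29 without GFP-positive replicate 2. With a library left out, the log2 difference of summed TPM ranged from -0.13 to 0.25 for the alpha ring and -0.082 to 0.25 for the beta ring (below 0 without GFP-positive replicate 1), and -0.13 to 0.061 for 19S assembly chaperones (above 0 without GFP-negative replicate 2). The 19 members whose estimates changed sign with a library left out include PSMD9 and PSMB4 (-0.085 to 0.32 and -0.13 to 0.22). Of the genes given with full statistics, those that changed sign ranged from -0.15 to 0.50 for PSMB5, -0.34 to 0.017 for PSMB6, -0.55 to 0.20 for PSMA1, -0.038 to 0.053 for PSMC3, -0.15 to 0.13 for PSMD13, -0.040 to 0.38 for PSME3, -0.43 to 0.78 for PSMG4, -0.080 to 0.021 for UBA1 and -0.33 to 0.44 for UBA6. With upper-quartile scaling PSMC3 was -0.026. The cause was not tested.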
